A study of Saccharomyces cerevisiae with 16 samples.

Results

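The transcript changes described here are those of budding yeast (Saccharomyces cerevisiae) cells treated with serine, set against untreated control cells. All genes with at least 1 RPKM (a read count scaled to gene length and library size) in at least 2 of the 4 serine and control libraries were compared, which left 6284 of the 7125 genes in the table. Of the 841 genes left out, 244 had no value above 0 in any of the 4 libraries. A further 21 genes were tested only through the serine libraries and 11 only through the control libraries, and a gene let in by 1 group alone is biased to differ.

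The study asked how a complex of metabolic enzymes that responds to serine and phosphorylates threonine 11 of histone H3 acts on transcription, and its series holds 16 total RNA-seq libraries from 6 groups of 2 replicates, some with technical repeats. Per the labels, the control and the serine cells both had the wild-type genotype, and all cells of the series grew in the rich medium YPD. The labels give neither the serine dose nor the length of the treatment. The replicates are numbered 2 and 3 in both groups, and with 2 libraries against 2 an exact permutation test of a single gene cannot go below p = 0.333.

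Serine is made from the glycolytic intermediate 3-phosphoglycerate, and it feeds glycine, one-carbon units, cysteine, tryptophan, phosphatidylserine and sphingolipids. Yeast cells can also deaminate it to pyruvate and ammonia, the reaction catalysed by Cha1. Pyruvate is the starting compound of valine and leucine synthesis, and the keto acid that threonine deamination yields is that of isoleucine.

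The control and serine libraries were of like depth and close to each other within groups. Read totals fitted from the steps of low values were between 11737249 and 12648182, at which 3 reads in a gene of 1 kb correspond to 0.237 to 0.256 RPKM. Pearson's r between replicates across the 6284 genes was 0.993 in both groups, and genes are not independent replicates. Both groups carried transcripts of mating type alpha: the summed RPKM of 5 alpha-specific genes was between 1341 and 1635 per library, against 18.6 to 23.4 for the a-specific genes, of which MFA2, an a-factor gene, was at 2.03 to 4.37. The group labelled WT, which has the same genotype label, did not match this. It had MFA2 at 899 and 936 RPKM, the alpha-factor gene MF(ALPHA)1 at 2.64 and 2.44, and HIS3, a histidine synthesis gene, at 0 and 0.122, against 20.0 to 26.6 in the control and serine libraries. INO1, which encodes the first enzyme of inositol synthesis, was at 7583 and 7698 RPKM in control and at 9.45 and 11.6 in WT, although the labels give all cells the same medium. WT levels are therefore given below for orientation only, and no difference from WT can be assigned to serine.

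Of the 6284 genes, 689 passed an adjusted p of 0.05 in a limma fit of log2(RPKM + 1), 265 of them higher (4.22%) and 424 lower (6.75%) in serine. This fit took its spread per gene from the 4 groups with similar replicates (control, serine, WT and the plasmid-histone strain YBL574). Strains other than the control thus entered the error, and CK2 and H3T11A were left out. With all 6 groups in the fit, 93 genes (1.48%) passed, 49 higher and 44 lower, and all 93 were among the 689. Most changes were small: 53 of the 689 genes moved by at least 1 log2 unit, 33 up and 20 down. The serine and control values did not overlap for any of the 689, but 29.1% of all genes tested had both serine values above both control values and 28.3% had both below. The count depended on single libraries, at 154 genes without control replicate 2, 315 without control replicate 3, 142 without serine replicate 2 and 284 without serine replicate 3. It also depended on the filter. With control and serine alone in the fit 582 genes passed, and 90 did when genes expressed in any of the 6 groups were let in. With the replicate number as a block, 449 genes passed, and 0 did under that wider filter, where 1162 genes had an unadjusted p under 0.05 in the same limma fit.

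**Figure D1:**
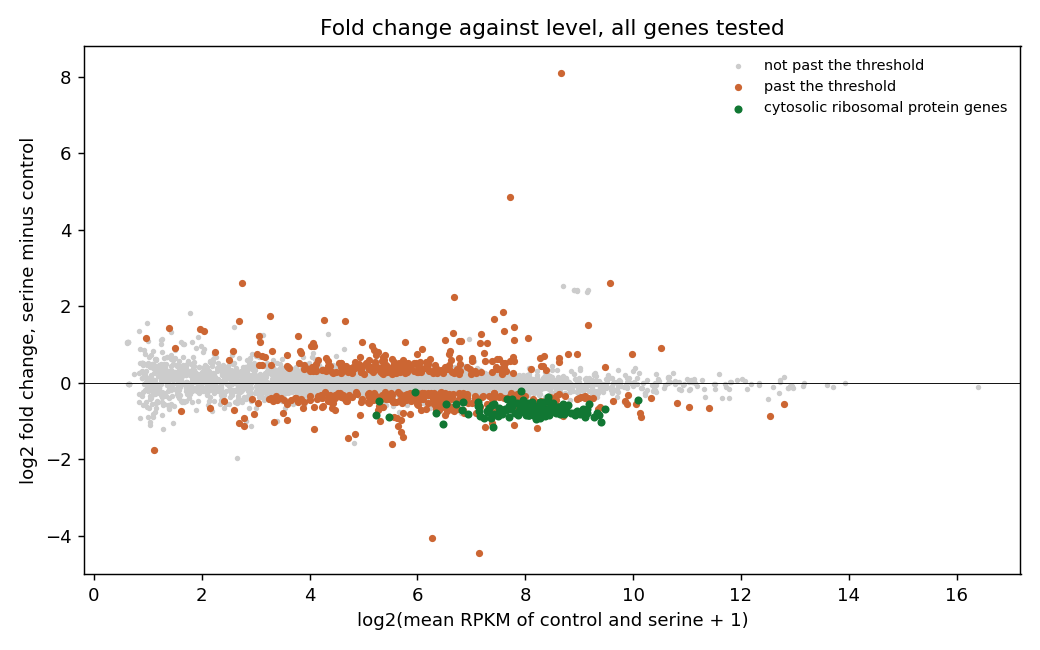
Log2 fold change (serine minus control) against the log2 mean RPKM + 1 of both groups, 1 point per gene for the 6284 genes tested. Grey points did not pass the adjusted p of 0.05, orange points did, and green points are the 138 cytosolic ribosomal protein genes, all of which lie below 0.

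In all, 34 genes passed in the 4-group fit and in every alternative except the block under the wider filter, 23 of them higher and 11 lower in serine. Those higher included CHA1, 6 genes of branched-chain amino acid synthesis (LEU1, LEU2, BAT1, ILV2, ILV5 and OAC1) and 3 amino acid permease genes (DIP5, TAT1 and BAP3). Those lower included ARO9 and ARO10 of aromatic amino acid breakdown, FAS1 of fatty acid synthesis, and CHS1, CRH1 and PST1 of the cell wall. CCW22, a cell wall gene by its symbol, was among those higher. A count of genes past the threshold in a pathway list is to be read against the 4.22% higher and 6.75% lower among all genes tested, and a list median against the median log2 fold change of 0.01 over all of them. No test was run on a list as a whole.

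In the list of 5 genes for serine and threonine breakdown 3 rose and 0 fell, against 4.22% higher among all genes tested, with a median log2 fold change of 0.77. With all 6 groups in the fit 2 of the 5 passed. CHA1 (YCL064C, chromosome III, 15798 to 16880, R64 assembly), which encodes the catabolic L-serine and L-threonine deaminase, was at 2.17 and 1.81 RPKM in control and at 796 and 820 in serine. The 2 groups were thus far apart, at a 406-fold ratio of means (log2 fold change 8.08 ± 0.20 SE, limma, adjusted p = 1.64e-06). The control values correspond to 28 and 23 reads. CHA1 was not silent in WT, at 334 and 408 RPKM. CHA4, the gene of the zinc cluster activator that induces CHA1 in the presence of serine, had overlapping groups, at 22.1 and 22.6 RPKM in control and 22.5 and 21.9 in serine (95% interval of the log2 fold change -0.18 to 0.15).

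GLY1, which encodes threonine aldolase, was at 110 and 111 RPKM in control and at 203 and 178 in serine, a log2 fold change of 0.78 ± 0.08 (SE, limma, adjusted p = 0.00259, and 0.303 with all 6 groups in the fit). MMF1, whose mitochondrial product removes reactive imines formed in serine and threonine deamination, rose from 377 and 362 to 606 and 653 RPKM. Neither gene overlapped between groups, which holds for every gene past the threshold. ILV1, the threonine deaminase gene of isoleucine synthesis, was at 60.3 and 59.4 RPKM in control and at 61.1 and 55.3 in serine, and the groups overlapped.

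The divergent neighbours of CHA1 and MMF1 rose as well. VAC17, which encodes a vacuole inheritance adaptor and starts 409 bases from CHA1 on the other strand, rose from 14.7 and 13.9 to 23.1 and 23.2 RPKM (log2 fold change 0.66 ± 0.07 SE, limma, adjusted p = 0.00259, and 0.0811 with 6 groups). PCL7, a cyclin gene of the Pho85 kinase that lies 632 bases from MMF1 in the opposite orientation, rose from 77.8 and 84.7 to 264 and 257 RPKM, a larger log2 fold change (1.67 ± 0.07) than that of MMF1 (0.77 ± 0.10). Both pairs are divergent, so each shares the sequence between the starts of its genes.

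Among the 4 genes of serine synthesis, 2 fell and 0 rose, with a median log2 fold change of -0.18. SER3 and SER33 encode isoenzymes of 3-phosphoglycerate dehydrogenase, the first step. SER3 was at 144 and 141 RPKM in control and at 83.4 and 90.0 in serine (log2 fold change -0.71 ± 0.14 SE, limma, adjusted p = 0.0170), whereas SER33 was at 148 and 139 and at 145 and 148, with overlapping groups. SER2, the phosphatase gene of the last step, fell by 0.38 on the log2 scale (limma, adjusted p = 0.0472). SER1, the transaminase gene, had values of 82.7 and 70.5 RPKM in control and 91.7 and 89.4 in serine and did not pass. In the fit of all 6 groups neither SER3 (adjusted p = 0.356) nor SER2 (adjusted p = 0.423) passed, and over the alternatives the adjusted p of SER3 ran from 0.00173 to 0.356 and that of SER2 from 0.0332 to 0.423.

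SRG1 is a noncoding RNA made from the region just upstream of SER3, and its transcription across the SER3 promoter is known to repress SER3 when serine is plentiful. It was at 34.2 and 35.1 RPKM in control and at 169 and 168 in serine, 4.87 times as high, and at 185 and 204 in WT. The log2 fold change was 2.25 ± 0.07 (SE, limma, adjusted p = 4.06e-06), the second smallest adjusted p of all genes tested after that of CHA1. The annotated SRG1 (chromosome V, 322212 to 322762) and SER3 (322686 to 324095) lie on the same strand and overlap by 77 bases, so reads from the shared bases cannot be told apart.

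**Figure D2:**
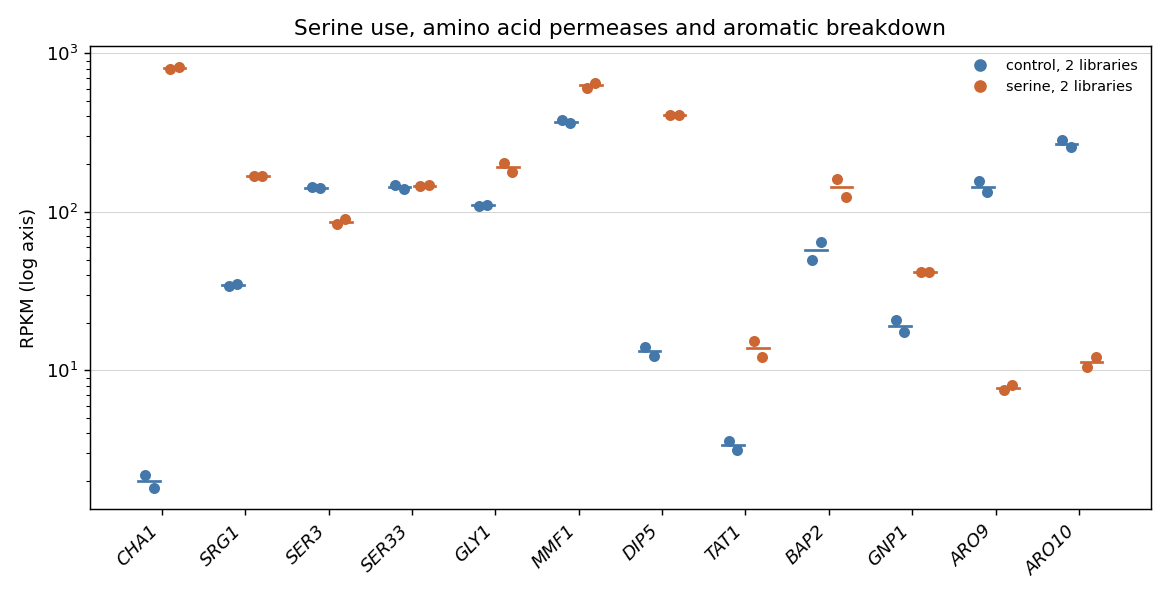
RPKM on a log axis of 12 genes of serine use, amino acid uptake and aromatic amino acid breakdown. Points are single libraries (blue control, orange serine, 2 each) and short lines are group means. CHA1 and DIP5 rise by the most, ARO9 and ARO10 fall by the most, and the points of SER33 overlap.

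Among downstream uses of serine, in the list of 18 folate one-carbon and glycine cleavage genes 1 rose and 1 fell, shares near the 4.22% and 6.75% of all genes tested, and the median log2 fold change was 0.00. The one that rose was GCV3, the H subunit of glycine decarboxylase, from 101 and 106 to 164 and 141 RPKM (log2 fold change 0.56 ± 0.09 SE, limma, adjusted p = 0.0101, and 0.262 with 6 groups). GCV1, GCV2 and LPD1, which encode the other subunits, had log2 fold changes of 0.33, 0.35 and -0.02 and did not pass. The one that fell was CDC21, thymidylate synthase, which is also a gene of the S phase. SHM1 and SHM2, the mitochondrial and cytosolic serine hydroxymethyltransferases, had log2 fold changes of -0.11 (95% interval -0.30 to 0.08) and -0.14 (-0.54 to 0.25). CYS4 (0.30), CHO1 (-0.18), TRP5 (0.06), LCB1 (-0.11) and LCB2 (-0.05), whose enzymes consume serine for cystathionine, phosphatidylserine, tryptophan and sphingoid bases, did not pass either.

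Synthesis of the branched-chain amino acids had the highest median log2 fold change of the lists examined, 0.87: 10 of 13 genes rose and 0 fell. With all 6 groups in the fit 9 of the 13 passed, and leaving out 1 library left between 8 and 10. LEU1, isopropylmalate isomerase, was at 189 and 243 RPKM in control and at 1183 and 1442 in serine (log2 fold change 2.60 ± 0.13 SE, limma, adjusted p = 7.19e-05). WT was lower than control, at 84.9 and 84.7. LEU2, the next enzyme of the leucine branch, was at 113 and 121 RPKM in control and at 324 and 328 in serine. LEU4 and LEU9, which encode the isopropylmalate synthases at its start, rose by 0.70 and 0.84 log2 units. LEU4 was at 242 and 251 and then 404 and 399 RPKM, while LEU9 stayed low, at 6.11 and 6.06 and then 10.4 and 13.1.

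The steps shared by valine, isoleucine and leucine rose as well. ILV2, the catalytic subunit of acetolactate synthase, went from 135 and 144 to 310 and 295 RPKM (log2 fold change 1.11 ± 0.07), ILV3, dihydroxyacid dehydratase, from 159 and 162 to 333 and 399, and ILV5, the reductoisomerase, from 751 and 755 to 1266 and 1264. BAT1, the mitochondrial branched-chain transaminase, rose from 293 and 301 to 803 and 882 RPKM, 2.84 times as high, and its cytosolic counterpart BAT2 from 23.5 and 26.5 to 47.5 and 45.2. OAC1, a mitochondrial carrier that exports isopropylmalate, rose from 73.9 and 91.2 to 301 and 295 RPKM (1.85 ± 0.10). None of these genes overlapped between groups, which holds for every gene past the threshold.

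The 3 genes that did not pass were ILV1, ILV6 and LEU3. ILV6, the regulatory subunit of acetolactate synthase, was at 236 RPKM in both control libraries and at 237 and 267 in serine, with a 95% interval of the log2 fold change from -0.11 to 0.30. LEU3, the gene of the transcription factor that activates this pathway when isopropylmalate accumulates, was at 22.0 and 24.7 RPKM in control and at 23.1 and 21.0 in serine, with overlapping groups (-0.28 to 0.12).

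**Figure D3:**
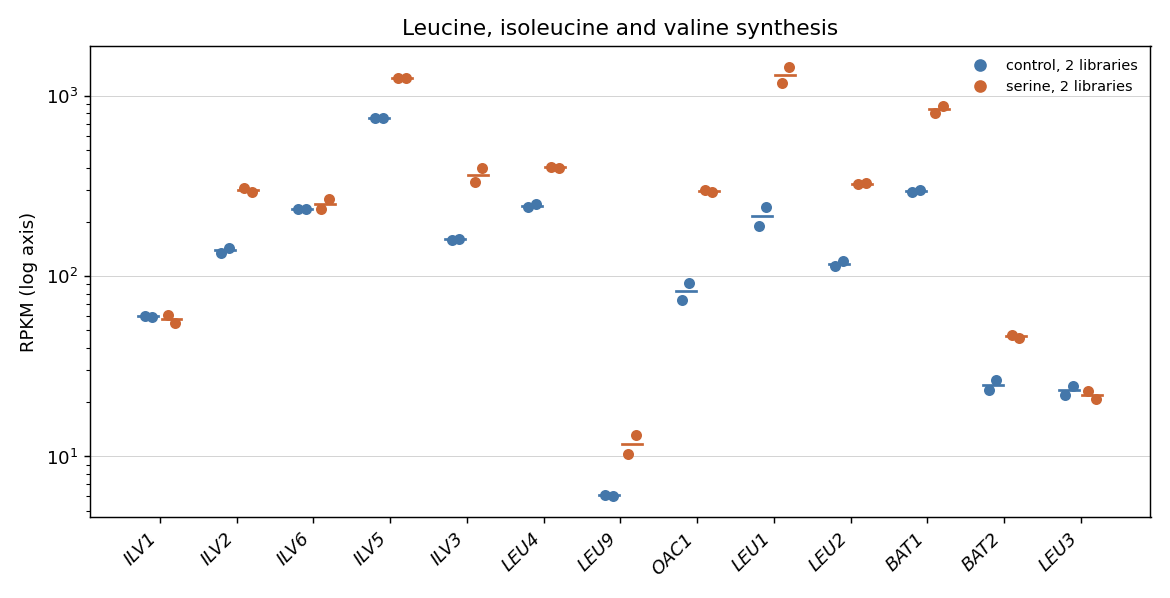
RPKM on a log axis of the 13 genes of leucine, isoleucine and valine synthesis, in the order of the pathway, with the transcription factor gene LEU3 at the right. Points are single libraries (blue control, orange serine) and lines are group means. The 2 serine points lie above the 2 control points for the 10 genes past the threshold, and the groups overlap for ILV1 and LEU3.

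Leu3 binds an inverted pair of CCGG runs, so the 500 bases upstream of each gene's start were read from the R64 reference and searched on both strands for CCGG followed after any 2 bases by CCGG. This motif was in 16 of the 5761 upstream windows of protein-coding genes tested, 0.278%, and in 5 of the 13 windows of the branched-chain list. The windows around these 5 matches are printed here on the strand of the gene, with the fixed letters of the motif in capitals, since the genes they precede are among those that rose.
LEU1 (chr7:478850-478879, minus strand, 217 bases upstream): aacgaaaattCCGGgaCCGGcgaaatttgc
LEU2 (chr3:91116-91145, plus strand, 198 bases upstream): ggtgagagcgCCGGaaCCGGcttttcatat
BAT1 (chr8:517375-517404, plus strand, 147 bases upstream): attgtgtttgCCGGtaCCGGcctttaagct
ILV2 (chr13:483606-483635, plus strand, 468 bases upstream): ccggagcctgCCGGtaCCGGcttggcttca
ILV5 (chr12:839611-839640, minus strand, 377 bases upstream): gcggtctcctCCGGtaCCGGttctgccacc

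Of the 16 genes with this motif, 8 rose and 0 fell. Of the 5745 genes without it 246 (4.28%) rose. Besides those 5, the genes that rose were BAP2, a permease for branched-chain amino acids, DRE2, which encodes a protein of cytosolic iron-sulfur cluster assembly, and FSF1, of a family of mitochondrial carriers. FSF1 went from 58.7 and 58.2 to 92.3 and 89.7 RPKM. The other 8, among them GDH1 and GAT1, did not pass, with log2 fold changes between -0.20 and 0.09. OAC1 and the other branched-chain genes do not hold these letters in this window, which says nothing of the factor. The motif was chosen with the rise of LEU1 known, and a match is not evidence of binding.

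Aromatic amino acid breakdown moved the other way. ARO9 and ARO10 encode the aromatic aminotransferase and the decarboxylase that open the Ehrlich pathway from phenylalanine, tyrosine and tryptophan to fusel alcohols. ARO10 was at 284 and 256 RPKM in control and at 10.5 and 12.2 in serine, a 23.8-fold lower mean (log2 fold change -4.46 ± 0.21 SE, limma, adjusted p = 4.55e-05). ARO9 was at 156 and 133 RPKM and at 7.49 and 8.03, an 18.6-fold lower mean (-4.05 ± 0.21, limma, adjusted p = 7.19e-05). In WT they lay between these levels, at 42.1 and 36.7 RPKM for ARO10 and at 50.5 and 42.0 for ARO9.

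The rest of the list of 12 Ehrlich genes did not follow them, and its median log2 fold change was 0.02. BAT2 rose, as given above, and so did PDC5, a pyruvate decarboxylase gene, from 59.7 and 74.7 to 195 and 106 RPKM (log2 fold change 1.09 ± 0.24 SE, limma, adjusted p = 0.0292), with serine libraries that differed from each other nearly as much as from control. PDC5 passed in 10 of 19 alternatives. ARO8, the other aromatic aminotransferase, was at 167 and 147 RPKM in control and 144 and 168 in serine, and ARO80, the gene of the activator of ARO9 and ARO10, was at 20.1 and 22.1 and at 21.1 and 19.0. Both overlapped between groups.

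The Aro80 factor binds repeats of CCG spaced by 7 bases, so a CCG followed after any 7 bases by another was searched in the same windows on both strands, overlaps included. It was in 310 of 5761 windows (5.38%). ARO9 held 5 matches and ARO10 held 4, and those that overlap form these runs, printed on the strand of each gene with the CCG triplets of the matches in capitals.
ARO9 (chr8:375534-375586, plus strand, 165 bases upstream): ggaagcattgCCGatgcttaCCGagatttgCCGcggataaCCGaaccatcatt
ARO10 (chr4:1233866-1233918, plus strand, 342 bases upstream): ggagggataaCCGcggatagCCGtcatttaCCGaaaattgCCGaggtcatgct

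Each run holds 3 overlapping matches. Across all windows the motif did not go with a fall: 6.45% of the genes with it and 7.25% of the genes without it were lower in serine. More of the genes with it were higher in serine, 8.06% against 4.2% of the genes without it.

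Among 26 genes of amino acid permeases and of the SPS sensor of external amino acids, 6 rose and 1 fell, with a median log2 fold change of 0.11. DIP5, a permease for acidic amino acids that also takes up serine, was at 14.1 and 12.3 RPKM in control and at 407 and 406 in serine, a 30.8-fold rise (log2 fold change 4.85 ± 0.19 SE, limma, adjusted p = 1.77e-05), and at 96.8 and 124 in WT. TAT1, which carries valine, leucine and aromatic amino acids, rose from 3.57 and 3.16 to 15.4 and 12.2 RPKM, with reads of 79 and 69 in control and 362 and 280 in serine. BAP2 rose from 49.9 and 64.6 to 161 and 124 RPKM and GNP1, a permease for glutamine, serine and threonine among others, from 20.8 and 17.6 to 41.4 in both serine libraries. BAP3 and AGP2 rose by 0.61 and 0.37 log2 units. The groups did not overlap for these 6, which holds for every gene past the threshold and is no added support.

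The rise was not general to permeases. AGP1, a permease of broad range, was at 372 and 361 RPKM in control and 381 and 397 in serine (95% interval of the log2 fold change -0.10 to 0.27), and CAN1 (0.22) and MUP1 (0.30) did not pass. The genes of the sensor itself, SSY1, PTR3 and SSY5, had log2 fold changes of 0.08, 0.14 and -0.05. STP2, one of the transcription factors it releases, fell by 0.34 (limma, adjusted p = 0.0159).

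Other amino acid pathways rose in part. Of the 10 genes of arginine synthesis 7 rose and 0 fell, with a median log2 fold change of 0.46. All 10 had both serine values above both control values, against 29.1% of all genes tested. ARG1, argininosuccinate synthetase, went from 113 and 105 to 281 and 278 RPKM (1.35 ± 0.08 SE, limma, adjusted p = 0.000152). ARG3, ornithine carbamoyltransferase, went from 23.5 and 23.4 to 45.9 and 46.6 RPKM. Only ARG1 passed with all 6 groups in the fit, and leaving out 1 library left 1 gene without control replicate 2 or control replicate 3 and 2 genes without serine replicate 2 or serine replicate 3. In the list for aspartate, asparagine and threonine, 4 of 10 genes rose (ASN1, ASN2, HOM2 and HOM3), by 0.29 to 0.56 log2 units, and the list median was 0.26. In that for lysine 2 of 10 rose (LYS1 and LYS20), with a median of 0.12. None of these 6 passed with all 6 groups in the fit. ALT1, which interconverts alanine and pyruvate and belongs to no list, was at 66.5 and 73.1 RPKM in control and at 153 and 150 in serine (log2 fold change 1.10 ± 0.11 SE, limma, adjusted p = 0.00232) and was named after its values were seen.

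In histidine synthesis 0 of 7 genes passed the threshold in limma, and 0 did with all 6 groups in the fit. HIS4 was at 138 and 125 RPKM in control and at 103 and 110 in serine (95% interval of the log2 fold change -0.77 to 0.17). GCN4, the activator of general amino acid control, is regulated mainly by translation. Its transcript was at 852 and 868 RPKM in control and 759 and 757 in serine and did not pass (limma, adjusted p = 0.15), and 0 of the 4 genes of that list passed. The letters TGACTC, the core of the Gcn4 site, were in 12.8% of all windows, in 10 of 13 for the branched-chain list, in 10 of 10 for arginine and in 6 of 7 for histidine. Among all genes with them 8.28% rose, against 3.84% of the genes without. For the CCG repeat searched above these shares were 8.06% and 4.2%. Of the genes with TGACTC 4.07% fell, against 7.66% of those without, and for the CCG repeat 6.45% against 7.25%. Windows that hold both motifs were not separated, and a part of Gcn4 was not tested.

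In the list for sulfate assimilation, methionine and cysteine 1 of 28 genes rose and 2 fell, shares near those of all genes tested (4.22% and 6.75%), with a median log2 fold change of 0.06. None of the 5 glutamate and glutamine genes passed in limma. The list of 18 genes of nitrogen catabolite repression holds regulators such as URE2 and GLN3 as well as targets, and its median log2 fold change was 0.12. The ammonium permease genes MEP3 and MEP2 were the 2 that rose. MEP3 went from 74.1 and 66.9 to 111 and 129 RPKM and MEP2 from 130 and 115 to 165 and 198. Among the 6 enzymes of the histone kinase complex that the study examined, SAM2, S-adenosylmethionine synthetase, fell from 1548 and 1392 to 1016 and 1206 RPKM (log2 fold change -0.41 ± 0.10 SE, limma, adjusted p = 0.0383, with a range over the alternatives from 0.0116 to 0.334). CDC19, the pyruvate kinase gene, was at 7772 and 6878 and at 5770 and 6434 RPKM and did not pass. The median log2 fold change of these 6 genes was -0.25. For 5 of them both serine values lay below both control values, against 28.3% of all genes tested.

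In central carbon metabolism the counts were near or under the shares of all genes tested (4.22% higher, 6.75% lower). In the list for glycolysis, fermentation and gluconeogenesis 2 of 27 genes rose (PDC5 and ADH5), in that for the TCA cycle and glyoxylate shunt 2 of 31, and in that for the respiratory chain 0 of 34, and 0 fell in any of these lists. Their median log2 fold changes were -0.02, 0.09 and 0.02. The 2 TCA genes were CIT2, the peroxisomal citrate synthase that reports the retrograde response, at 338 and 320 RPKM in control and 556 and 562 in serine, and PYC1, pyruvate carboxylase, at 165 and 171 and then 250 and 248. Neither passed with 6 groups in the fit (limma, adjusted p = 0.586 for CIT2 and 0.344 for PYC1). Over all the alternatives the adjusted p of CIT2 ran from 0.00131 to 0.586 and that of PYC1 from 0.00262 to 0.344. Of the 17 trehalose and glycogen genes only GPH1, glycogen phosphorylase, passed, and it fell by 0.31 log2 units.

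Some genes of lipid synthesis fell. Of 21 phospholipid and inositol genes 5 fell and 0 rose, with a median log2 fold change of -0.14. INO1 fell from 7698 and 7583 to 3874 and 4527 RPKM (log2 fold change -0.87 ± 0.11 SE, limma, adjusted p = 0.00459), and ITR1, an inositol permease gene, from 2566 and 2500 to 1516 and 1794. CHO1, the phosphatidylserine synthase gene, had a log2 fold change of -0.18 and did not pass. GIT1, which takes up glycerophosphoinositol and belongs to no list, fell from 229 and 220 to 107 and 108 RPKM and was named after its values were seen. In a list of 17 fatty acid genes that was drawn up after values were seen, 8 fell and 0 rose, with a median of -0.30: FAS1, which encodes a subunit of fatty acid synthase, went from 818 and 808 to 529 and 523 RPKM, ACC1, acetyl-CoA carboxylase, from 411 and 400 to 260 and 258, and OLE1, the fatty acid desaturase, from 1480 and 1444 to 869 and 711. FAS2, FAA3, MGA2 and the elongase genes ELO2 and ELO3 fell by 0.35 to 0.64. Among 25 ergosterol genes 5 fell and 1 rose, and among 27 sphingolipid genes 5 fell and 1 rose, neither LCB1 nor LCB2 among them, with medians of -0.12 and -0.03. With all 6 groups in the fit the genes that fell were 1 of 17 for fatty acids, 1 of 21 for phospholipid and inositol, 0 of 25 for ergosterol and 0 of 27 for sphingolipids. INO1 and FAS1 still passed there (limma, adjusted p = 0.0238 and 0.0383), while ACC1 (0.0643), OLE1 (0.0892) and ITR1 (0.182) did not. Over the alternatives the adjusted p of these 5 genes reached 0.257 at the highest, and their lowest ran from 0.000881 for INO1 to 0.00564 for ITR1.

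Several vitamin and cofactor genes rose. In the list for biotin 3 of 6 genes rose (median log2 fold change 0.36), led by BIO5, which imports a biotin precursor, from 10.4 and 9.65 to 20.9 and 22.1 RPKM (log2 fold change 1.03 ± 0.13 SE, limma, adjusted p = 0.00463). In that for thiamine and pyridoxine 5 of 21 rose (median 0.16), among them THI20, from 237 and 245 to 387 and 363 RPKM. With all 6 groups in the fit 1 of the biotin genes and 2 of the thiamine genes passed. THI4, a thiamine synthesis gene whose serine libraries were at 230 and 115 RPKM, had a log2 fold change of 1.15 but did not pass (limma, adjusted p = 0.0667, with a range over the alternatives from 0.00131 to 0.403). In a list for heme and iron-sulfur clusters that was drawn up after values were seen, 10 of 31 genes rose and 0 fell, among them ISU2, a scaffold protein, from 54.3 and 58.1 to 125 and 123 RPKM, and DRE2, from 83.0 and 84.4 to 131 and 132. Leu1 and Ilv3 are themselves iron-sulfur enzymes. The list's count was 2 with all 6 groups in the fit, 3 without control replicate 2, 2 without control replicate 3, 2 without serine replicate 2 and 4 without serine replicate 3. Among 18 iron uptake genes 0 rose and 1 fell.

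**Figure D4:**
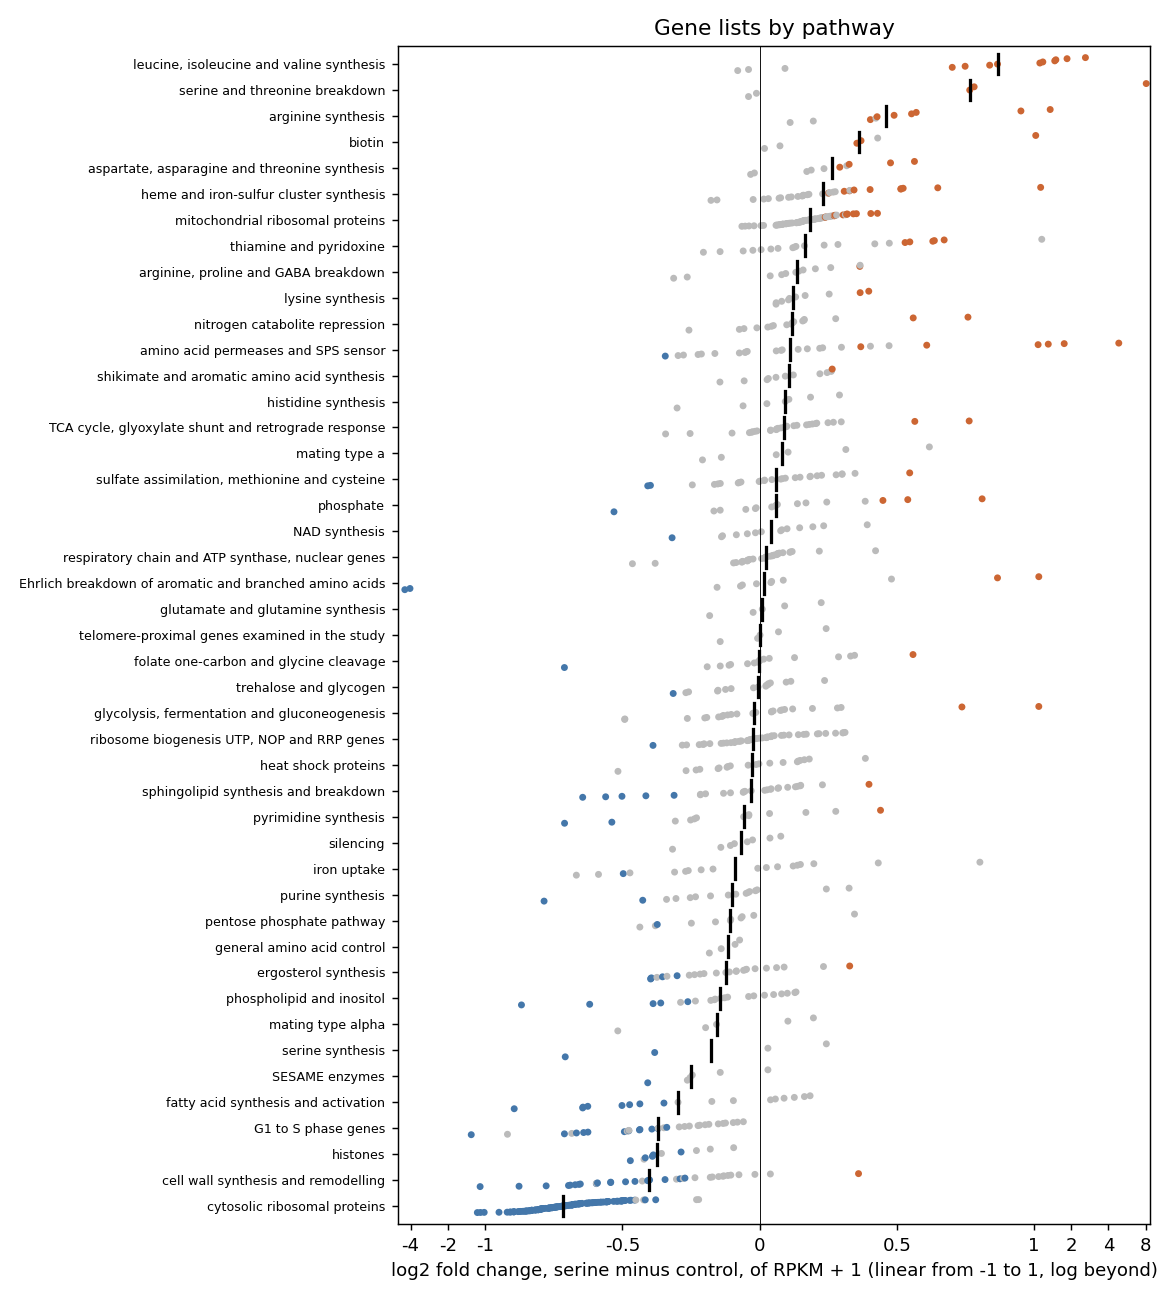
Log2 fold change (serine minus control) of every tested gene in 45 lists, 1 row per list, ordered by the list's median (black bar). Orange and blue points are genes higher and lower past the threshold and grey points are the others. The axis is linear between -1 and 1 and logarithmic beyond. The list for leucine, isoleucine and valine synthesis has the highest median and that of cytosolic ribosomal proteins the lowest.

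The most uniform change was a fall of the cytosolic ribosomal protein genes, a list drawn up after values were seen. All 138 had both serine values below both control values, against 28.3% of all genes tested, and 134 of them passed the threshold, which is 31.6% of the genes that fell. Their median RPKM was 370 and 317 in control and 198 and 223 in serine, and the median log2 fold change was -0.72, with a range from -1.15 to -0.22. ASC1, a protein of the small subunit, went from 258 and 207 to 94.1 and 114 RPKM, and RPL3, of the large subunit, from 774 and 647 to 385 and 441. Many of these genes have near-identical copies, and how reads shared between copies were counted is not given in the sources used here.

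The count of ribosomal protein genes rested on the spread and on single libraries, though the direction did not. It was 15 with all 6 groups in the fit, 32 without control replicate 2, 118 without control replicate 3, 18 without serine replicate 2 and 94 without serine replicate 3, and under these 4 omissions the median stayed between -0.81 and -0.61. That all 138 genes were lower in each of the 4 pairs of a serine with a control library follows from the lack of overlap. The median fall in a pair was 0.55 to 0.89 log2 units. Their share of all RPKM times gene length over protein-coding genes was 3.87% and 3.32% in control, 2.21% and 2.39% in serine, and 9.47% and 8.45% in WT. Values of the ribosomal RNA genes were higher in both serine libraries: RDN37-1, a copy of the 35S precursor gene, was at 64.9 and 329 RPKM in control and at 752 and 833 in serine (limma, adjusted p = 0.119), and at 213 and 1004 in WT. Together the RDN37-1 and RDN37-2 rows held 0.0903% and 0.450% of the fitted read total in control and 1.03% and 1.14% in serine. The part of ribosomal RNA carry-over in the result was not tested.

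As lists, ribosome biogenesis genes and mitochondrial ribosomal protein genes did not fall with them. Of 53 ribosome biogenesis genes (symbols UTP, NOP and RRP) 0 rose and 1 fell, with a median log2 fold change of -0.02. Of 75 mitochondrial ribosomal protein genes 12 rose and 0 fell, and the median was 0.18. The log2 fold change was above 0 for 71 of them, and for 3237 of all 6284 genes tested. None of the 75 passed with all 6 groups in the fit. Without the cytosolic ribosomal protein genes, 265 genes were higher and 290 lower in serine of 6146 tested.

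Genes of the cell wall and of the G1 to S transition, also grouped after values were seen, were mostly lower. Of 36 cell wall genes 20 fell and 1 rose, with a median log2 fold change of -0.40. The list left out CCW22, a cell wall gene by its symbol. Its mean rose from 93.3 to 192 RPKM (log2 fold change 1.04 ± 0.11 SE, limma, adjusted p = 0.00259). CRH1, a transglycosylase of the wall, went from 549 and 525 to 298 and 286 RPKM (-0.88 ± 0.07 SE, limma, adjusted p = 0.000491), and CHS1, a chitin synthase, from 215 and 223 to 139 and 138. Of 31 G1 to S genes 12 fell, 0 rose and all had a log2 fold change below 0, with a median of -0.37. Of all 6284 genes tested, 3237 had a log2 fold change above 0. RNR1, the large subunit of ribonucleotide reductase, went from 81.3 and 65.0 to 29.0 and 29.2 RPKM (-1.29 ± 0.11, limma, adjusted p = 0.00133). The G1 cyclin gene CLN1 went from 52.4 and 44.6 to 30.6 and 31.4, and 5 of 10 histone genes fell, HTA1 among them, from 658 and 650 to 501 and 496 RPKM. With 6 groups in the fit 4 of the cell wall genes, 3 of the G1 to S genes and 0 of the histone genes fell. Without control replicate 2, control replicate 3, serine replicate 2 and serine replicate 3 in turn, 7, 12, 8 and 11 of the cell wall genes and 3, 10, 2 and 4 of the G1 to S genes fell. The letters ACGCGT, bound by the G1 factor MBF, were in 20 of the 31 G1 to S windows and in 5.47% of all windows. Of the 315 genes with them 41 were lower in serine, against 6.87% of those without.

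Of 6 telomere-proximal genes listed from those the study examined, 5 could be tested and 0 passed in limma, and their log2 fold changes lay between -0.14 and 0.24. By qRT-PCR, another assay, the paper reports that serine lowered SOR1, COS8, PHO11 and SEO1. Whether its dose and time were those of these libraries is not given in the labels. COS8 was at 135 and 143 RPKM in control and at 130 and 149 in serine, with overlapping groups. SOR1 (2.66 and 2.94, then 3.09 and 2.49) and PHO11 (7.13 and 5.95, then 6.08 and 5.54) were low. SEO1 was at 4.06 and 3.44 RPKM in control and 4.04 and 3.91 in serine, and RDS1, a transcription factor gene, was at 16.7 and 15.7 and at 19.0 and 19.7, above control in both libraries (95% interval of the log2 fold change 0.07 to 0.41, adjusted p = 0.0761 by limma, with a range over the alternatives from 0.0512 to 0.499). The 8 genes of the silencing list had 0 past the threshold.

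Of the 689 genes past the threshold, 288 were in any of the lists, so the pathways above leave out most of them. Those given here are from the 20 most changed genes. QDR2, a multidrug transporter gene, rose from 9.03 and 7.69 to 26.1 and 30.4 RPKM, and THI73, a putative permease gene, from 9.95 and 12.5 to 45.9 and 29.0. SMP1, which encodes a transcription factor of the MADS box family, fell from 69.3 and 66.8 to 23.3 and 20.8 RPKM and MNC1 from 67.8 and 84.8 to 29.5 and 26.2. YOR387C, a gene of unknown function, fell from 42.5 and 32.1 to 13.4 and 12.6. NCW2, a cell wall protein gene, fell from 372 and 449 to 207 and 157 RPKM, and CPP3 from 31.3 and 48.6 to 17.7 and 12.5. The groups did not overlap for any of these, since genes without overlap were the ones picked. The 20 most changed genes also included snR24 and tN(GUU)P, the latter at 2.27 and 0 RPKM in control and 12.8 and 7.66 in serine. They included tH(GUG)G2 too, listed at 2.34 and 2.37 in control and at 0 in both serine libraries. It was tested only through the control libraries, so it was biased to differ. snR24, tN(GUU)P and tH(GUG)G2 are genes of short RNAs for which so few reads make the values uncertain.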

How the data were processed

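RNA of 16 libraries was sequenced, and the authors deposited gene expression as RPKM, a count scaled to gene length and library size, for 7125 genes. The submitters' processing notes name CASAVA (1.8.2), TopHat2 (2.0.13), edgeR and the sacCer3 build. The denominator, the use of strand and the treatment of shared reads are not given in the sources used here. Of the 7125 genes, 6079 (85.3%) matched the R64 reference, which is sacCer3, by systematic name or symbol. All coordinates are 1-based. Read totals were fitted so that low values became whole reads, and 97.8% to 98.7% of low values then lay within 0.1 of a whole number; floors cover counting error only.

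Libraries labelled as technical repeats of 1 replicate (YBL574, H3T11A) were averaged. Values were analysed as log2(RPKM + 1), so fold changes of low genes are understated, in R 4.3.3 by limma 3.58.1 (a linear fit with trended empirical Bayes variances), without covariates, with 4 residual degrees of freedom, two-sided and with Benjamini-Hochberg adjustment. CK2 and H3T11A were left out of the fit (4 groups) because their replicates differed more (the SD of their log2 difference was 0.47 and 0.54, while elsewhere it was 0.22 to 0.25). No label says that replicates came from separate cultures, so p-values measure the spread between these samples.

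Named genes were the 10 largest and 10 smallest log2 fold changes among genes past the threshold without overlap, up to 5 genes of a list by adjusted p, and fixed serine, SESAME, GCN4, telomere-proximal and mating-type genes. Others are named as members of a list, as neighbours, or as said in the text. The members and the lists (37 set with the design and 8 added after values were seen) were chosen with earlier results of these data known. Motifs were counted in 500 bases upstream of each gene's start in the RefSeq R64 sequence. Alternatives changed the groups in the fit, the scaling, the pseudocount (0.1 or 5), the filter, the replicate block and the libraries.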

Additional observations from a re-analysis of the deposited data

How the results depend on the processing

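With all 6 groups in the fit 93 genes passed, 49 higher and 44 lower, against 689, 265 and 424 in the 4-group fit, so the share of higher genes was 52.7% in place of 38.5%. The numbers 2 and 3 do not pair the samples by any label, and deviations of same-numbered libraries correlated at -0.115 (Pearson, across 6284 genes). The replicate block gave 449 genes, 152 of them higher. Exchanging the serine numbers in the block, a pairing chosen after seeing the data, gave 797. Further alternatives chosen after seeing the data let in genes at 1 RPKM or more in 2 of the 12 replicates (6727 genes): 646 genes passed in the 4-group fit, 90 (51 higher, 39 lower, 56.7% higher) with control and serine alone, and 0 (0 higher, 0 lower) with the block. The prior degrees of freedom were 1.40 and 1.52 in the last fits, against 3.97 and 5.52 under the filter on the 4 libraries. Leaving out 1 replicate gave 142 to 315 genes, 64 to 96 of them higher and 78 to 219 lower, a lone library being assumed to vary like the other groups. The other alternatives (array weights, scaling, pseudocount, no filter, 10 RPKM, first technical library) gave 546 to 825.

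Signs changed for 13 named genes, none past the threshold. The log2 fold change of COS8 was -0.0192 with median-of-ratios scaling. Leaving out a replicate gave -0.0927 to 0.0962 for COS8, -0.074 to 0.7025 for MFA1, -0.5914 to 0.1756 for MFA2, -0.1163 to 0.0102 for LCB2, -0.1407 to 0.0019 for ARO80, -0.0605 to 0.182 for BAR1, -0.1107 to 0.0305 for ILV1, -0.0246 to 0.1625 for SEO1, -0.0172 to 0.0782 for SER33, -0.4713 to 0.6778 for MF(ALPHA)2, -0.0283 to 0.0056 for CHA4, -0.1252 to 0.1027 for ARO8 and -0.1225 to 0.1083 for SOR1. Why counts moved with the fit and the filter was not tested.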
